A study of Rattus norvegicus with 40 samples.

Results

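The genes described here encode the machinery that releases neurotransmitter from synaptic vesicles, measured by RNA sequencing in 4 regions of the rat brain 12 months after exposure to a blast, or after sham treatment. They were matched by symbol among protein-coding genes, by a rule set with earlier results of these data known. The rule took names like those of the synaptotagmins, syntaxins, syntaxin-binding proteins, SNAP proteins, synaptobrevins (Vamp), complexins and synapsins. It also took Munc13 (Unc13), RIM (Rims), Rab3 and SV2 names, with synaptophysin (Syp). The rule matched 86 of the 25958 gene identifiers in the deposited tables, and all 86 were present in each of the 4 regional tables. It also took in 11 genes from Rab30 to Rab39a, which are other small GTPases, and Snap91, which encodes the clathrin assembly protein AP180. Snap23 and Sv2b were not analysed here.

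Hippocampus, amygdala, anterior cortex and cerebellum were each represented by 5 libraries from blast-exposed rats and 5 from sham-exposed rats, 40 libraries in all. The labels used here give no strain, sex or age, and do not say which libraries share an animal, so p-values measure only the spread between these libraries. Libraries are named by the number in their titles. For 1 amygdala sham library title and column disagree, and it is called unnumbered.

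Synaptic vesicles fuse when a vesicle SNARE of the Vamp family zips up with the plasma membrane SNAREs, a syntaxin and SNAP-25. Munc13 proteins prime vesicles for fusion, RIM and Rab3 hold vesicles at the active zone, complexin binds the assembled complex, and synaptotagmins trigger fusion when calcium enters. Most of these proteins come in closely related copies, and neurons of different brain regions are known to use different copies.

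Library totals ranged from 11268097 to 37128383 counts, and 16577 to 20748 genes had at least 1 read. The anterior cortex libraries blast 8, sham 11, sham 13 and sham 15 had the fewest genes detected, and the hippocampal libraries Hip_8 and Hip_666 (blast) and Hip_11 (sham) carried high levels of choroid plexus genes. The mean log2 level of choroid plexus genes, centred in a region, reached 4.86 in hippocampal blast and 4.05 in hippocampal sham. In cerebellum it reached 3.32 in blast and 2.16 in sham, and no cerebellar library was left out for this. Region labels were checked against markers in the sham libraries. Gabra6, a marker of cerebellar granule cells, stood at 950.5 ± 27.6 CPM (counts scaled to the same library total; mean and SD, n = 5) in cerebellum and at a mean of 0.539 or less elsewhere. Rorb, a marker of a middle cortical layer, was highest in anterior cortex at 36.0 ± 17.0 CPM, and Prox1, a dentate gyrus marker, in hippocampus at 143 ± 52.5 CPM. The 4 amygdala markers averaged a log2 CPM of 4.76 in amygdala and 3.46 or less elsewhere. In anterior cortex the 6 cortical layer markers averaged 5.81. The 6 striatum markers were also highest there, at 5.24, beside 4.13 in amygdala, 2.79 in hippocampus and 3.03 in cerebellum. The part of striatal RNA in contrasts with anterior cortex was not tested. Libraries came from whole tissue, so fewer cells of a type and less RNA per cell cannot be told apart in any value given here.

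The release genes spanned a wide range of levels in sham brain. To compare genes, levels were set per kilobase of the deposited gene length. In hippocampus the means ran from 0.110 to 717 CPM per kilobase, with a median of 18.2 over the 86 genes. Snap25, which encodes the plasma membrane SNARE SNAP-25, was highest in every region, at 717 CPM per kilobase in hippocampus, 555 in amygdala, 644 in anterior cortex and 873 in cerebellum. In hippocampus it was followed by synaptophysin, an abundant vesicle membrane protein, at 634, then Cplx2 at 460.0, Vamp2 at 410.0 and Syt1 at 267. For 30 of the 86 genes the deposited FPKM values rest on another length than the length column. With that length Snap25 would stand at 1539 CPM per kilobase in hippocampus, and Cplx2, at 717, would lie above synaptophysin. Cplx4 and Syt8 were too low to be tested within any region or between sham regions, though the fits of all 40 libraries took Syt8. Cplx4 had 0 reads in the 5 sham anterior cortex libraries together, which allows up to 0.0477 CPM, counting error only.

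Sham levels were compared between regions in 1 fit of the 20 sham libraries with edgeR's quasi-likelihood test and Benjamini-Hochberg adjustment, which gives every adjusted p below unless another test is named. Of 84 release genes tested, 70 (83.3%) differed between regions at an adjusted p under 0.05, beside 74.5% of all 15695 genes. Genes were not annotated alike in all 4 regional tables. Of 20814 gene identifiers in all 4, 16587 had the same name, position and length. Among the release genes 82 of 86 did, and Stx6, Stxbp4, Syt17 and Vamp3 had another length in the cerebellum table. Contrasts with the cerebellum, and their shares of all genes, carry this limit. The cerebellum was then set against the mean of the 3 forebrain regions. There 28 release genes (33.3%) were higher in cerebellum and 31 (36.9%) lower, beside 30.9% and 32.1% of all genes. With a fold of 2 or more, 12 (14.3%) were higher and 17 (20.2%) lower, beside 8.43% and 17.5%. The median log2 fold change was -0.11 over the release genes and 0.00 over all genes. Cell markers differed too: the 6 granule cell markers averaged a log2 CPM of 9.48 in cerebellum and 0.85 to 1.48 in the forebrain regions. The 10 general neuron markers averaged 7.34 there and 7.57 to 7.68 in the forebrain. Their part in the differences of the release genes was not tested.

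**Figure D1:**
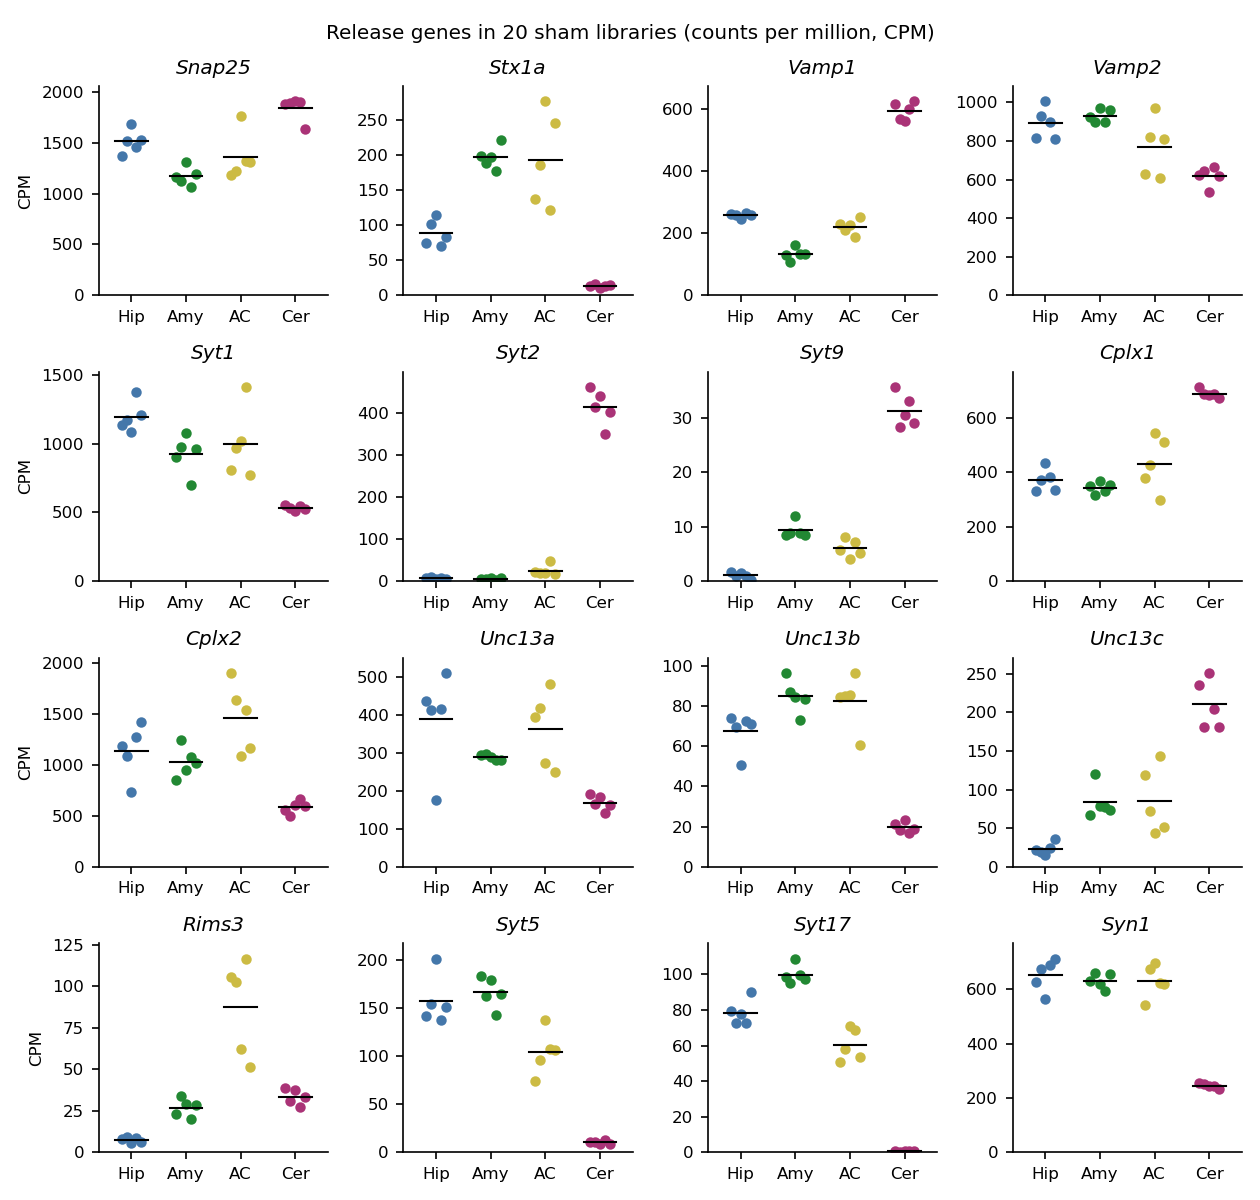
CPM (y axis, linear from 0) of 16 release genes in the 20 sham libraries of hippocampus (Hip), amygdala (Amy), anterior cortex (AC) and cerebellum (Cer). Each point is 1 library and each black line the mean of 5; Syt2, Vamp1 and Unc13c have all 5 cerebellar points above the forebrain points, and Stx1a, Syt5, Syt17 and Syn1 all 5 below.

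The fast calcium sensors differed between regions in opposite directions. Syt1, the main fast sensor of forebrain synapses, stood at 1194 ± 112 CPM in hippocampus, 922 ± 141 in amygdala, 996 ± 254 in anterior cortex and 533 ± 16.8 in cerebellum. It was lower in cerebellum than in forebrain, with a log2 fold change of -0.95 ± 0.12 (SE; adjusted p = 4.21e-07). Syt2, its close relative, read 462, 415, 440.4, 351 and 404 CPM in the 5 sham cerebellum libraries. It read 5.94, 9.23, 5.38, 7.55 and 3.84 CPM in hippocampus and 4.15, 5.12, 7.18, 3.18 and 6.80 in amygdala. In anterior cortex it read 22.1, 18.8, 18.8, 46.4 and 16.8 CPM. Every cerebellar library lay above every forebrain library, with a log2 fold change of 5.46 ± 0.19 (adjusted p = 4.27e-16). Amygdala and hippocampus, where Syt2 was lowest, did not differ beyond their spread (adjusted p = 0.551), and each lay below anterior cortex (adjusted p = 1.06e-05 and 1.20e-05). Syt9, the other fast sensor, was also higher in cerebellum (3.0 ± 0.17, adjusted p = 2.57e-12), and hippocampus held the least, 1.05 ± 0.567 CPM.

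Of the vesicle SNAREs, Vamp1 was higher and Vamp2 lower in cerebellum. Vamp1 read 616, 569.6, 562, 603 and 625 CPM in sham cerebellum, above all 15 forebrain libraries, and 129.9, 108, 163, 133 and 134 in amygdala, the lowest region. Its log2 fold change of cerebellum over forebrain was 1.60 ± 0.07 (adjusted p = 2.61e-14). Vamp2, the main synaptobrevin of the forebrain, stood at 617 ± 50.1 CPM in cerebellum and 931 ± 34.1 in amygdala, with a log2 fold change of -0.48 ± 0.09 (adjusted p = 1.12e-04). Vamp3, a more widely expressed relative with another length in the cerebellum table, did not pass the test between regions (adjusted p = 0.775).

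The sequences upstream of Syt1, Syt2, Vamp1 and Vamp2 are shown because these pairs differ between forebrain and cerebellum in opposite directions. RefSeq entries of the rat assembly GRCr8 were found by symbol for 67 of the 86 genes, and the 250 bases before the annotated start were searched on both strands. Capitals mark the cyclic AMP response element TGACGTCA, the GC box GGGCGG or its complement, or TATAAA. The GC box was present upstream of 64.2% of the 67 release genes and 30.5% of all 33469 promoters in the table. The release genes had 1 entry each and are protein-coding. The whole set was limited in neither way, so these shares are not of like sets. TATAAA was present in 4.48% beside 12.9%. The response element was present in 2.99%, which are Vamp1 and Syn1, beside 1.59%. A GC box was held by 11 of 21 release genes called as higher in cerebellum (52.4%) and by 18 of 26 lower (69.2%). The difference between these shares was not tested, and the like shares of all genes called were not computed. A match describes these letters and is not evidence of binding.
Syt1, chr7:46244214-46244463 (minus strand): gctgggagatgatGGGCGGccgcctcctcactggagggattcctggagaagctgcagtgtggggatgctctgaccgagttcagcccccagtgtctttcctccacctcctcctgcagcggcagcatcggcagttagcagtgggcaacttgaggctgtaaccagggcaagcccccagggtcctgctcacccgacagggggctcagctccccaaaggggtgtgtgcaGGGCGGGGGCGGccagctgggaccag
Syt2, chr13:48736872-48737121 (plus strand): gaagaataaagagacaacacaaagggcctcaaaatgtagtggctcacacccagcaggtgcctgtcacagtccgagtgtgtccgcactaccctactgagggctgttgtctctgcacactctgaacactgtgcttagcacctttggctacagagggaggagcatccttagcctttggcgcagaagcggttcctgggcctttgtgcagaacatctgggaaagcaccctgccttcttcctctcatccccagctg
Vamp1, chr4:159698644-159698893 (plus strand): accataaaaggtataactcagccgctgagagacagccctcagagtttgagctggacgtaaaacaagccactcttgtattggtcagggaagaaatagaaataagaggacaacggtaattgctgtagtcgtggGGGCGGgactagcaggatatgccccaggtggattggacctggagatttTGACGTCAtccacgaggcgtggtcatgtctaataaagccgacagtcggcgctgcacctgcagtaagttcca
Vamp2, chr10:54292539-54292788 (plus strand): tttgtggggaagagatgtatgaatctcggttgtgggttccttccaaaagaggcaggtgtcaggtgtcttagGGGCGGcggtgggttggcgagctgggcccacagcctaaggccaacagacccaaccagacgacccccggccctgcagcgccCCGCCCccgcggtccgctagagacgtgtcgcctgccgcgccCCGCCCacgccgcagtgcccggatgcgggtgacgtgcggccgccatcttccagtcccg
Syt1 holds 3 GC boxes in this window, Vamp2 holds 3 and Vamp1 holds 1, with the response element 71 bases before the start of Vamp1. Syt2 holds none of these letters in this window.

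The plasma membrane SNARE Stx1a was lower in cerebellum. Stx1a, which encodes syntaxin-1A, read 13.8, 16.3, 10.5, 12.6 and 14.5 CPM in sham cerebellum. In hippocampus it read 74.8, 102, 114, 70.5 and 82.4 CPM, and its ranges were 178 to 222 in amygdala and 121 to 277 in anterior cortex. Every cerebellar value lay below every forebrain value (-3.47 ± 0.19, adjusted p = 1.43e-12). Stx3, the syntaxin of ribbon synapses, was higher in cerebellum (1.25 ± 0.11, adjusted p = 4.50e-09), as was Snap25 (0.46 ± 0.08, adjusted p = 3.64e-05). Stxbp6 was lower in cerebellum (-2.38 ± 0.19, adjusted p = 6.77e-10).

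Among the complexins, Cplx1 was higher in cerebellum (0.86 ± 0.09, adjusted p = 9.29e-08) and Cplx2 lower (-1.03 ± 0.14, adjusted p = 1.99e-06). Cplx3, the complexin of ribbon synapses, had 6 reads in all over the 5 sham cerebellum libraries, and stood at 12.3 ± 3.29 CPM in amygdala and 11 ± 3.73 in anterior cortex (adjusted p = 2.73e-09 for cerebellum against forebrain). Its hippocampal values were 1.95, 1.93, 8.44, 1.54 and 2.20 CPM, the high one being sham 14. The Munc13 genes prime vesicles for fusion. Unc13c, known from cerebellar granule cells, read 235, 182, 251, 205 and 180.5 CPM in sham cerebellum and 14.9 to 35.6 in hippocampus. It was higher in cerebellum than in forebrain (1.94 ± 0.20, adjusted p = 4.27e-08), while Unc13a (-1.03 ± 0.18, adjusted p = 3.56e-05) and Unc13b (-1.99 ± 0.12, adjusted p = 2.96e-12) were lower.

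The other synaptotagmins include slower sensors and forms that do not bind calcium. Syt17 read 0.759, 0.303, 0.878, 0.835 and 1.01 CPM in sham cerebellum, 50.8 to 71.2 in anterior cortex, 72.7 to 90.1 in hippocampus and 94.9 to 109 in amygdala. Its log2 fold change was -6.69 ± 0.17 (adjusted p = 2.76e-18), and the cerebellum table annotates Syt17 differently from the other tables. Syt16 (-4.99 ± 0.20) and Syt5 (-3.75 ± 0.15) were also lower in cerebellum, and Syt10 had 1 to 3 reads in each cerebellar library. Syt4 (1.56 ± 0.12) and Syt12 (1.54 ± 0.09) were higher. Syt7, a sensor for asynchronous release, did not pass (-0.15 ± 0.16, adjusted p = 0.440). Without hippocampal sham 14 it was called as lower in cerebellum (-0.22, adjusted p = 0.0293).

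Synapsins tether vesicles in the reserve pool. Syn1 (-1.38 ± 0.07, adjusted p = 3.00e-13) and Syn2 (-0.88 ± 0.10, adjusted p = 2.52e-07) were lower in cerebellum, and Syn3 was not called (-0.11 ± 0.20, adjusted p = 0.655). Rab3b (-1.22 ± 0.22) and Rab3d (-1.11 ± 0.10) were lower, while Rab3a, the main Rab3 of synaptic vesicles, did not pass (0.23 ± 0.13, adjusted p = 0.125). Rab3a was called as higher without anterior cortex sham 14 (adjusted p = 0.0184) or without cerebellum sham 14 (adjusted p = 0.0443). Rab3ip, an exchange factor for small GTPases, was higher (1.33 ± 0.08), as was Sv2a, the vesicle glycoprotein that binds levetiracetam (0.41 ± 0.10, adjusted p = 0.00103). Synaptophysin was lower (-0.25 ± 0.10, adjusted p = 0.0277), a call lost when any 1 of the 5 cerebellum sham libraries was left out (log2 fold change -0.24 to -0.18). Of the other Rab genes caught by the rule, Rab37 was higher (3.55 ± 0.26) and Rab36 lower (-3.13 ± 0.15).

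**Figure D2:**
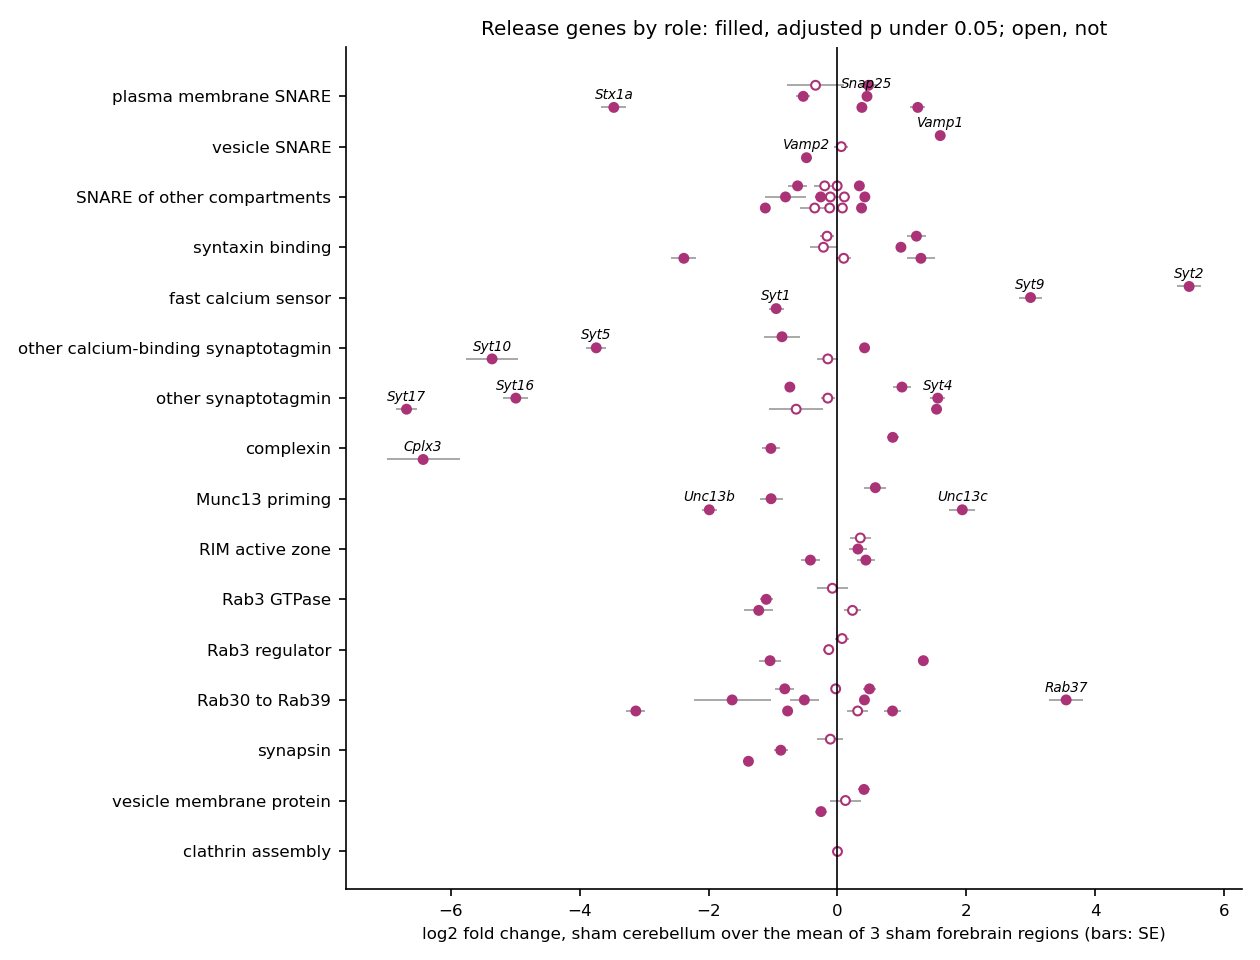
Log2 fold change of sham cerebellum over the mean of the 3 sham forebrain regions (x axis) for the 84 release genes tested, in rows by role. Bars are standard errors, filled points have an adjusted p under 0.05 and open points do not; the values run from -6.69 for Syt17 to 5.46 for Syt2.

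The paralogue pairs were also expressed as the share of one gene in a pair, per kilobase and within each library, which needs no scaling between libraries. Syt2 made up 0.769% ± 0.241 of Syt2 plus Syt1 in sham hippocampus, 0.810% ± 0.169 in amygdala, 3.35% ± 0.815 in anterior cortex and 52.9% ± 2.77 in cerebellum (SD, n = 5). Vamp1 made up 10.6% ± 1.14 of Vamp1 plus Vamp2 in amygdala, 19.4% ± 1.77 in hippocampus, 19.5% ± 2.79 in anterior cortex and 44.4% ± 1.83 in cerebellum. Unc13c made up 4.24% ± 0.993 of Unc13c plus Unc13a in hippocampus and 47.1% ± 2.99 in cerebellum. Over the 6 pairs tested, 5 of which are shown, and 6 contrasts of regions, 27 of 36 two-sided exact permutation tests had an adjusted p under 0.05, and 25 reached 0.00794, the smallest p that 5 against 5 libraries can give. The 18 contrasts with the cerebellum were all among those 25. The pairs were chosen with earlier results of these data known. The tests reuse the sham libraries of the fit above, so they are not separate support for it. Lengths implied by the deposited FPKM, an alternative chosen after seeing the data, lowered the cerebellar mean of the Syt2 share to 43.1% and that of the Cplx1 share from 57.8% to 46.8%, so neither was then the larger part of its pair. With these lengths 27 of the 36 tests passed. With the length column the Cplx1 share did not pass between forebrain regions, where the means differed by 2.02 percentage points at most (exact permutation p = 0.651). These means hide a spread. In sham anterior cortex the share was 18.3% to 23.2% in libraries 11, 13 and 15, and 36.8% and 33.7% in 14 and 33. Hippocampal sham 14 stood at 40.5%.

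**Figure D3:**
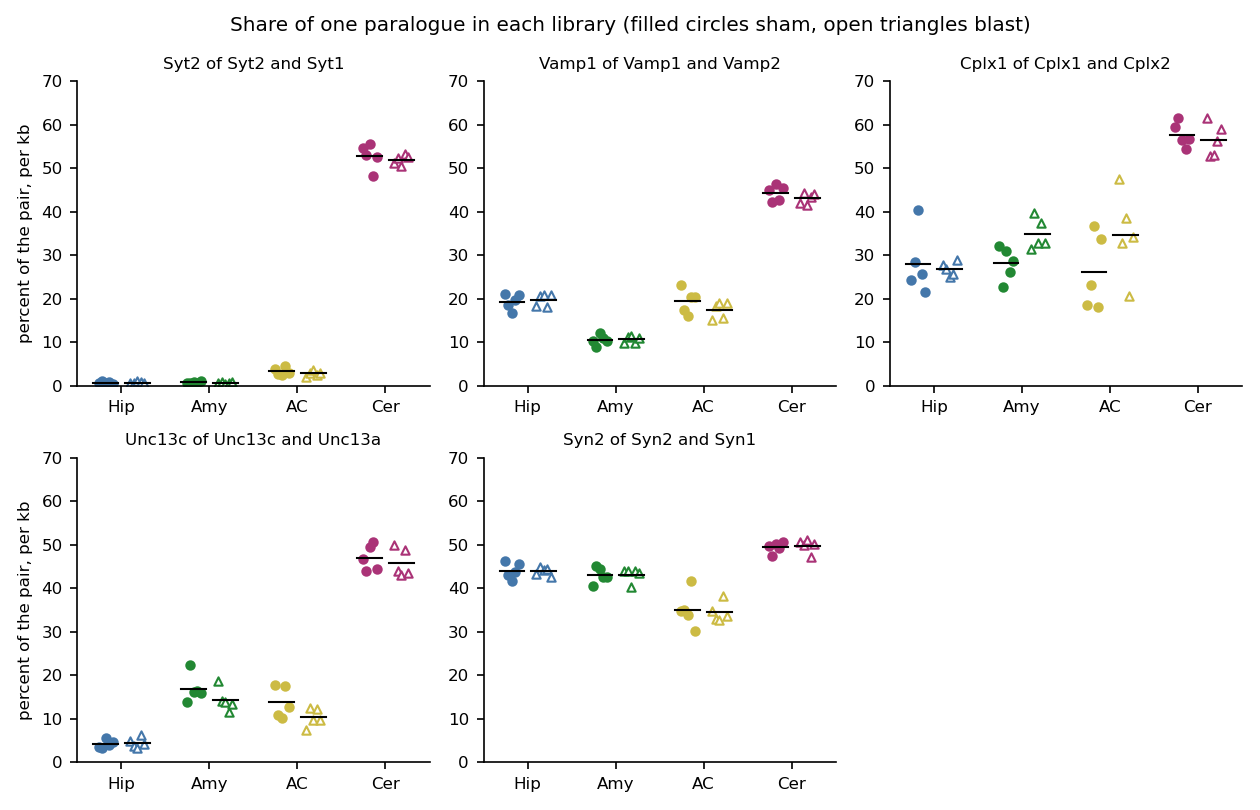
Percent that one paralogue makes up of a pair, from reads per kilobase in each library (y axis), for 5 pairs in hippocampus (Hip), amygdala (Amy), anterior cortex (AC) and cerebellum (Cer); filled circles are sham, open triangles blast, and lines are means of 5 libraries. The sham cerebellum mean is 52.9% for Syt2 and 47.1% for Unc13c.

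Within the forebrain, hippocampus against amygdala gave 14 release genes higher and 14 lower (16.7% each), beside 9.14% and 11.5% of all genes. With a fold of 2 or more, 1 was higher and 9 lower, beside 2.32% and 4.54%. Hippocampus against anterior cortex gave 21 higher and 21 lower (25.0% each), beside 22% and 21.7%. With a fold of 2 or more, 2 were higher and 14 lower, beside 4.77% and 7.77%. Amygdala against anterior cortex gave 10 higher and 17 lower, beside 10.3% and 11.4%, and with a fold of 2 or more 1 and 5, beside 2.59% and 2.68%. Those 27 calls between amygdala and anterior cortex became 13 without the 4 sham libraries that stand apart, hippocampal 11 and anterior cortex 11, 13 and 15. These 4 were set apart by few detected genes or much choroid plexus RNA. Hippocampal sham 14, flagged below for its release gene values, was kept. The release genes' median log2 fold changes were 0.04, -0.02 and -0.06 in these comparisons, and those of all genes 0.01, 0.00 and 0.03.

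All 4 RIM genes, which build the active zone scaffold, were lower in sham hippocampus and in sham amygdala than in sham anterior cortex. Rims3 read 8.24, 9.29, 5.70, 8.87 and 6.20 CPM in hippocampus and 23.2, 33.9, 29.2, 19.9 and 28.8 in amygdala. In anterior cortex it read 105, 103, 62.4, 117 and 51.6 CPM. The 3 regions did not overlap, with a log2 fold change of -3.52 ± 0.22 for hippocampus against anterior cortex (adjusted p = 1.94e-10). For the same contrast Rims4 differed by -1.49 ± 0.18, Rims2 by -1.15 ± 0.17 and Rims1 by -0.74 ± 0.17 (largest adjusted p = 0.00184). For all 4 genes the 3 highest anterior cortex values came from sham libraries 11, 13 and 15, those with few detected genes. Without these and hippocampal sham 11, Rims2, Rims3 and Rims4 were still called as lower in hippocampus than in anterior cortex (-0.89, -2.90 and -1.26), and Rims1 was not (-0.51, adjusted p = 0.114). For amygdala against anterior cortex Rims3 was still called (-1.08, adjusted p = 0.00268). The amygdala calls of Rims1 (adjusted p = 0.606), Rims2 (adjusted p = 0.0891) and Rims4 (adjusted p = 0.0536) were lost. Syt9 was lower in hippocampus than in amygdala (-3.11 ± 0.27) and anterior cortex (-2.49 ± 0.28). Cplx3 and Unc13c were lower in hippocampus than in amygdala (-1.90 ± 0.39 and -1.85 ± 0.28), and Vamp1 was higher (0.95 ± 0.09). Syt2 and Syt6 were lower in amygdala than in anterior cortex (-2.22 ± 0.28 and -1.73 ± 0.33). Sv2c, a vesicle glycoprotein related to Sv2a, was lower in hippocampus than in anterior cortex (-2.44 ± 0.31). Rab38, known from melanosomes, was called in both contrasts with anterior cortex but had 0 to 4 reads in each sham library there. Its call against amygdala was lost when amygdala sham 11, 15 or 33 or anterior cortex sham 11 or 15 was left out (log2 fold change 1.73 to 2.13).

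Other genes of the pathway were read from a list of 36 partners, among them active zone scaffolds, SNARE recycling factors and endocytic proteins. All 36 were tested, and 6 (16.7%) were higher and 13 (36.1%) lower in sham cerebellum than in forebrain, beside 30.9% and 32.1% of all genes. Cadps2, a priming factor for dense-core vesicles, was higher (2.58 ± 0.13), as were Ppfia4 (1.72 ± 0.08) and Prrt2 (1.66 ± 0.07). Doc2a, a high-affinity calcium sensor, was lower (-3.86 ± 0.19), as were the RIM-binding protein gene Rimbp2 (-3.45 ± 0.20) and the synaptoporin gene Synpr (-3.19 ± 0.12).

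Blast was compared with sham separately in each region, 5 libraries against 5, and CPM values from here on are scaled within a region. No release gene had an adjusted p under 0.05 by edgeR's quasi-likelihood test in any region, and neither did any other gene, so the background was 0.0% in each. At an unadjusted p under 0.05 there were 0 of 84 release genes in hippocampus, beside 1.89% of all genes, and 11 of 84 (13.1%) in amygdala, beside 8.67%. In anterior cortex there were 5 of 82 (6.10%), beside 4.32%, and in cerebellum 2 of 80 (2.50%), beside 4.62%. DESeq2 and limma voom also called 0 release genes in each region. The median log2 fold change of the release genes was -0.01 in hippocampus, 0.02 in amygdala, 0.04 in anterior cortex and 0.00 in cerebellum, and that of all genes 0.00 in each. No release gene had an adjusted p under 0.05 in the authors' deposited table, where the smallest was 0.0555, for Cplx2 in amygdala. There 28 of the 86 were given an adjusted p.

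**Figure D4:**
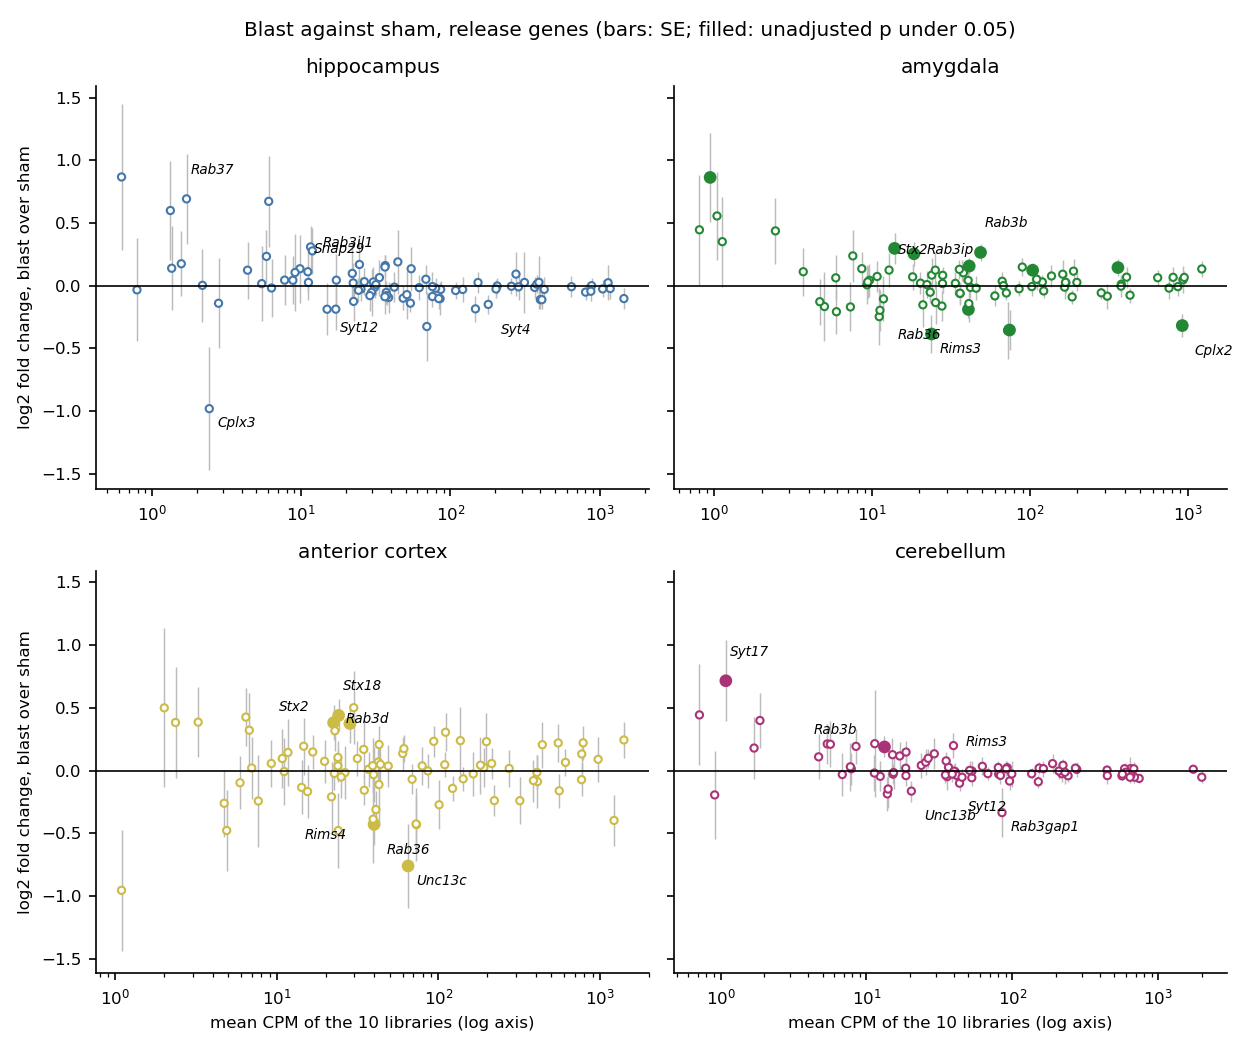
Log2 fold change of blast over sham (y axis) against the mean CPM of the 10 libraries (x axis, log scale) for the release genes tested in each region. Bars are standard errors and filled points have an unadjusted p under 0.05, which are 0 genes in hippocampus, 11 in amygdala, 5 in anterior cortex and 2 in cerebellum; no gene passes after adjustment.

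In amygdala, Rab3b and Cplx2 had the smallest p-values. Rab3b, a Rab3 GTPase of secretory cells, read 52.5, 50.7, 54.7, 49.3 and 59.0 CPM after blast and 44.5, 43.6, 41.1, 47.9 and 44.4 after sham. Every blast value lay above every sham value, with a log2 fold change of 0.26 ± 0.07 (adjusted p = 0.459). Stx2, a broadly expressed plasma membrane syntaxin, ranged over 42.1 to 47.1 CPM after blast and 35.6 to 40.6 after sham (0.16 ± 0.06, adjusted p = 0.524). Rab3b and Stx2 were the 2 of 84 release genes whose groups did not overlap there (2.38%), beside 1.52% of all genes. Cplx2 read 711, 808, 852, 879 and 873 CPM after blast and 854, 1244, 953, 1072 and 1018 after sham. Its groups overlapped through sham 11 (-0.32 ± 0.09, adjusted p = 0.459). Rab3ip differed by 0.25 ± 0.10, Rab36 by -0.19 ± 0.07 and Rims3 by -0.39 ± 0.15, with adjusted p-values of 0.516 to 0.517. Cplx1 made up 34.8% ± 3.57 of the complexin pair after blast and 28.2% ± 3.78 after sham, and the two-sided exact permutation test gave p = 0.0159 (adjusted p = 0.381 over 24 tests).

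In anterior cortex several values moved with the 4 libraries that had the fewest genes, 3 of them sham and 1 blast. Stx18, a syntaxin of the endoplasmic reticulum, read 24.2, 32.0, 26, 29.4 and 27.2 CPM after blast and 20.7, 18, 23.5, 19.2 and 20.9 after sham. These groups did not overlap, the single case among 82 release genes (1.22%), beside 0.644% of all genes. The log2 fold change was 0.44 ± 0.13 (adjusted p = 0.799). In 1 model of all 40 libraries Stx18 was called (adjusted p = 0.0284). That model took 1 spread per gene for all regions, though replicates varied most in anterior cortex, and had no term for the title number. Without the 4 libraries, in anterior cortex alone, the log2 fold change of Stx18 was 0.26 (adjusted p = 0.999). Rab36 read 37.1, 32.2, 31.5, 36.1 and 33.1 CPM after blast and 47.7, 54.2, 32.6, 59.2 and 35.4 after sham. Its 3 highest sham values were libraries 11, 13 and 15, and its log2 fold change of -0.43 ± 0.17 was 0.01 without the 4 libraries. Unc13c went from -0.76 ± 0.33 to -0.07 in the same way, and Rims4 from -0.31 ± 0.15 to -0.01. Rab3d (0.38 ± 0.14) and Stx2 (0.37 ± 0.16) had unadjusted p-values of 0.0183 and 0.0338. The Cplx1 share of the complexin pair was 18.3% to 23.2% in the 4 libraries and 32.8% to 47.5% in the other 6.

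In hippocampus the groups of all 84 release genes tested overlapped, and 0.272% of all genes had groups that did not. Cplx3 read 1.78, 1.36, 2.06, 2.16 and 0.812 CPM after blast and 1.94, 1.92, 8.42, 1.53 and 2.18 after sham. Sham 14 lay apart, and without it the log2 fold change of -0.98 ± 0.49 was -0.20. Rab37 read 0.713, 2.11, 2.13, 1.77 and 3.79 CPM after blast and 1.18 to 1.46 after sham (0.69 ± 0.36, adjusted p = 0.998). Its log2 fold change was 0.38 without Hip_666 and 0.22 when the 3 libraries with much choroid plexus RNA were left out. Snap29, a SNARE of several compartments, differed by 0.16 ± 0.08, Rab3il1 by 0.31 ± 0.17, Syt4 by -0.15 ± 0.08 and Syt12 by -0.14 ± 0.07, each with an adjusted p of 0.998. Among abundant members, Syt1 differed by -0.02 ± 0.08 and Vamp2 by -0.04 ± 0.08.

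In cerebellum Rab3b read 15.3, 13.3, 15, 14.1 and 13.1 CPM after blast and 11.8, 12.6, 13.2, 12.9 and 11.6 after sham, with overlapping groups (0.19 ± 0.08, adjusted p = 0.999). Syt17 ranged over 0.805 to 1.71 CPM after blast and 0.334 to 1.11 after sham (0.72 ± 0.32, adjusted p = 0.999). Rims3 differed by 0.20 ± 0.10, Unc13b by -0.16 ± 0.08 and Syt12 by -0.09 ± 0.05. Cplx1 (-0.06 ± 0.04) and Sv2a (-0.04 ± 0.03) had every blast value below every sham value. They were the 2 of 80 release genes (2.50%) whose groups did not overlap, beside 0.731% of all genes. Replicates varied least here, with a common coefficient of variation of 13.6%, and most in anterior cortex, at 27.8%. Snap25 differed by -0.05 ± 0.05 and Syt1 by 0.01 ± 0.05.

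Whether the blast effect differed between regions was tested in 1 model, with 1 spread per gene for all regions and no term for the title number. The interaction called 0 of 85 release genes, beside 0.0% of 16378 genes, and 7 (8.24%) had an unadjusted p under 0.05, beside 4.76%. Stx18 had the smallest p (2.66e-04, adjusted p = 0.670). Its log2 fold changes were -0.05 ± 0.09 in hippocampus, 0.08 ± 0.07 in amygdala and -0.03 ± 0.06 in cerebellum, beside the anterior cortex value given above. The mean effect over regions, fitted with limma voom, called 0 of 85 release genes, beside 0.00611% of all genes, and 8 (9.41%) had an unadjusted p under 0.05, beside 8.36%. Stx2 had the smallest p, with a mean log2 fold change of 0.18 ± 0.06 (limma voom, adjusted p = 0.336) and a positive value in each of the 4 regions. Rab32, a Rab of mitochondria and lysosome-related organelles, stood at 0.34 ± 0.13 (limma voom, adjusted p = 0.478).

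Rab3gap1 encodes the catalytic subunit of the complex that stimulates GTP hydrolysis by Rab3. Its mean log2 fold change over regions was -0.47 ± 0.15 (limma voom, adjusted p = 0.375). In the order Hip_4, Hip_8, Hip_22, Hip_88 and Hip_666 it read 50.9, 82.4, 76.0, 76.0 and 22.7 CPM in hippocampus. In the same order of title numbers it read 53.2, 80.5, 71.9, 85.5 and 26.4 CPM in amygdala. It read 41.0, 98.2, 73.1, 69.4 and 29.4 CPM in anterior cortex and 58.6, 92.6, 87.1, 97.9 and 38.5 in cerebellum. In all 4 regions the library with the title number of Hip_666 was lowest and that of Hip_4 next lowest, both below every sham library of the region. Sham libraries ran from 59.6 to 85.8 CPM in hippocampus, 71.3 to 92.0 in amygdala, 61.0 to 118 in anterior cortex and 88.4 to 106 in cerebellum. The ratios, the limit of 1 CPM and the shares of genes that follow use library totals without TMM scaling, unlike the CPM values above. Relative to the mean of the other 4 blast libraries, the lowest stood at 0.324 in hippocampus, 0.368 in amygdala, 0.419 in anterior cortex and 0.461 in cerebellum. This pattern was chosen after its values were seen. The limma voom fit took a correlation of 0.021 between same-numbered libraries for every gene, so its SE allows little for this recurrence. Among 13480 genes at 1 CPM or more in every region, the lowest blast library carried the same number in all 4 regions for 1.85%. Of 78 release genes among them 2 did, the other being Stxbp6 with the libraries numbered 4. With that library also at 0.6 of the others or less in each region, the share was 0.163% of all genes and 1 release gene, Rab3gap1. Rab3gap2, the gene of the partner subunit, differed after blast by -0.01 ± 0.11 in hippocampus, -0.02 ± 0.06 in amygdala, 0.00 ± 0.14 in anterior cortex and -0.04 ± 0.07 in cerebellum.

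**Figure D5:**
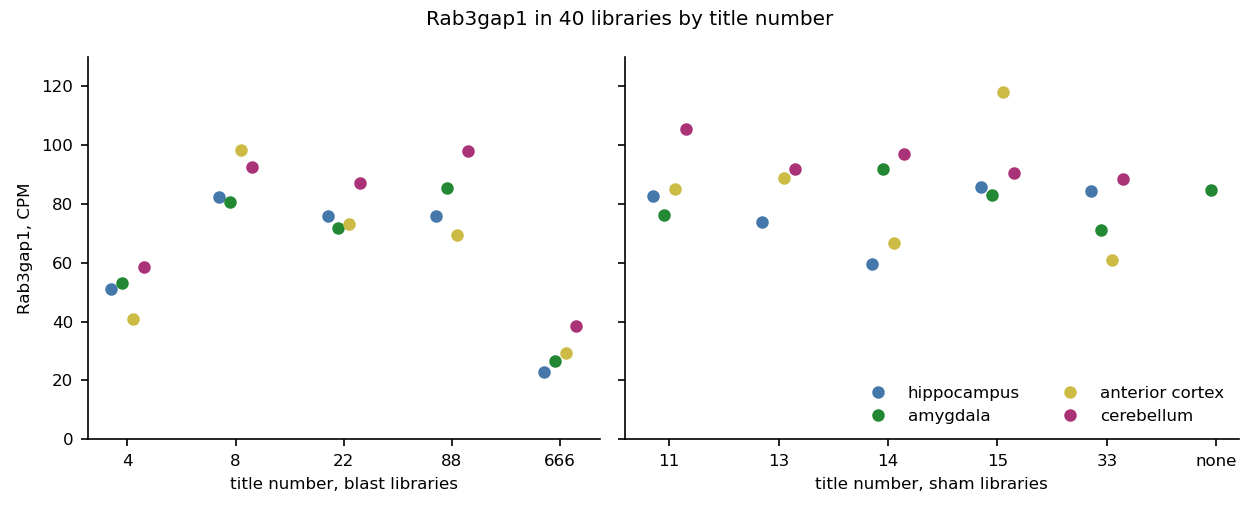
Rab3gap1 in CPM (y axis, linear from 0) in all 40 libraries, placed by the number in the library title (x axis) and coloured by region, with blast at left, sham at right and the unnumbered amygdala library marked none. The blast libraries Hip_666, Amy_666, AC_666 and Cer666 (22.7 to 38.5 CPM) are the lowest, and those numbered 4 (41.0 to 58.6 CPM) come next in each region.

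None of the 36 partner genes was called after blast in any region by edgeR's quasi-likelihood test, and 0, 4, 4 and 0 had an unadjusted p under 0.05 in hippocampus, amygdala, anterior cortex and cerebellum. Each 4 is 11.1% of the partners, beside 8.67% of all genes in amygdala and 4.32% in anterior cortex. In amygdala these included Ppfia3 at -0.18 ± 0.05, Tspoap1 at -0.13 ± 0.05 and Itsn1 at -0.14 ± 0.06. In anterior cortex they were Amph, which encodes the endocytic protein amphiphysin, at -0.77 ± 0.24, Syngr3 at 0.61 ± 0.27, Tspoap1 at -0.26 ± 0.11 and Ppfia3 at -0.24 ± 0.11. Partner genes outside the rule for named genes were chosen here after their values were seen. The mean log2 CPM of the release genes, centred within each region, lay between -0.12 and 0.10 in all 40 libraries, and blast and sham overlapped in each region.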

How the data were processed

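RNA from 4 brain regions was sequenced from 40 libraries, made with Qiazol, an RNeasy kit and the NEBNext Ultra RNA kit per the labels' protocols. CASAVA is named per the submitters' processing notes; aligner, counter, genome build, annotation and strand use are not stated in the labels, so overlapping antisense genes cannot be told apart. Per the file headers the deposited values are raw counts of reads for every gene. The authors also deposited a signal, the count divided by a size factor per library, checked here against the counts. For the unnumbered amygdala library 2 columns of such values were not used, and its counts were. The deposited FPKM values were used only to check gene lengths. The authors' own log2 fold changes and p-values, per the file headers, are quoted only where their deposited table is named.

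Counts were tested with edgeR 4.0.16 (filterByExpr, TMM, quasi-likelihood F test) in R 4.3.3, and CPM is counts per TMM-scaled library total: blast against sham in each region, the region by blast interaction over 40 libraries, and sham regions over 20 libraries. The mean blast effect used limma 3.58.1 (voom, with the title number as a random block). P-values were adjusted by Benjamini-Hochberg over all genes tested, with a threshold of 0.05. Library totals of 11268097 to 37128383 counts limit low genes most. Of 80 pairs of replicates none agreed within sampling noise (smallest chi-square per degree of freedom 6.30). The edgeR comparison of blast with sham in each region was tested on simulated counts, and the other fits and tests were not.

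Members, gene lists and pairs were chosen with earlier results of these data known. Named genes are the core release genes, the 3 with the smallest p in each direction in each blast comparison, the 3 with the smallest p of the interaction and of the mean effect, the 6 with the largest called fold in each direction in cerebellum, and the 3 with the largest called fold for each forebrain pair. Rab3gap2, Vamp3, Stx3, Stxbp6 and other genes outside this rule were named after their values were seen. Alternatives were DESeq2 1.42.0, RLE scaling, no filter, limma voom, replicate blocks, 1 model of 40 libraries, genes with the same annotation, and leaving out each library or those that stand apart. The results of some listed genes, and of 1 pair, are not reported here.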

Additional observations from a re-analysis of the deposited data

Results flagged for a closer look

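In 5 cases 1 library lay far from the other 4 of its group. Of 104 groups of 5 libraries tested 5 were picked out, and chance gives about 5.2 at 1 in 20. In hippocampus, sham 14 stood at 8.42 CPM for Cplx3, and the other sham libraries at 1.53 to 2.18. The same library had a mean score of -0.12 over the release genes (log2 CPM, centred in the region), and the others -0.01 to 0.03. In amygdala, sham 14 stood at 35.6 CPM for Stx2, and the others at 39.4 to 40.6. Also in amygdala, blast 22 stood at 44.1 CPM for Rab36, and the others at 35.9 to 38.2. Syn2 made up 40.3% of Syn2 plus Syn1 in the amygdala blast library Amy_666, and 43.5% to 44.1% in the other blast libraries.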

How the results depend on the processing

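Counts of release genes called after blast were 0 in each region under every alternative run except 1: in anterior cortex 1 release gene, Stx18, was called in 1 model of 40 libraries, with 34 of all genes. Leaving out 1 library at a time gave 0 to 0 in every region, and 0 to 2 of all genes. Leaving out 1 sham library at a time gave 69 to 71 release genes differing between regions, 53 to 62 for cerebellum against forebrain, 24 to 30 for hippocampus against amygdala, 38 to 46 for hippocampus against anterior cortex and 20 to 31 for amygdala against anterior cortex. Without the 4 sham libraries that stand apart the last count was 13, and 1125 of all genes were called in place of 3415; this leaves fewer samples. Rab36 in anterior cortex after blast reversed to 0.0104 without the 4 libraries with the fewest genes. Syn3 in cerebellum against forebrain reversed to 0.0295 without cerebellum sham 15 and to 0.00982 without the 4 sham libraries; the cause was not tested. Whether title numbers pair the libraries was not settled. Of 27 same-numbered sham pairs 10 had a correlation over 0.1 (-0.17 to 0.476). Their median was 0.041, and that of other pairs -0.016. Of 19 numbered sham libraries 10 had their best mean correlation with their own number. After blast, low Rab3gap1 recurred by number in all 4 regions, as given above. With the number as a replicate block 68 release genes differed between regions, 58 in cerebellum against forebrain, 25 between hippocampus and amygdala, 41 between hippocampus and anterior cortex and 21 between amygdala and anterior cortex, where 2243 of all genes were called in place of 3415. The mean blast effect called 0 release genes with no replicate block, and 2 of all genes in place of 1. DESeq2 called 1, 9, 0 and 5 of all genes after blast in hippocampus, amygdala, anterior cortex and cerebellum, and 2 were called in amygdala with no filter and 2 in anterior cortex without the 4 libraries with the fewest genes. Of single genes in sham regions, 29 alternatives lost a call and 3 gained one of 1079; Rims2 in cerebellum was lost under DESeq2 (adjusted p = 0.0780), with RLE scaling and in 11 of the 20 fits that left out 1 sham library, and Rims1 without cerebellum sham 13 or 15. Depth limits genes near or under 1 CPM, such as Syt17 and, far lower, Cplx3 in cerebellum.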
